A study of Rattus norvegicus with 18 samples.

Results

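A stretch of 9 neighbouring CpGs at the start of the Pigx gene, from base 71938494 to 71938539 of chromosome 11 in the rn6 build, was examined in rat striatum together with the CpGs up to 50 kb away on each side. CpGs entered where a cytosine had at least 10 reads, with both strands of a CpG merged. The window held 93 such CpGs of 1451601 in the whole series, 9 of them in the stretch and 84 outside it. The stretch was chosen by its own measured difference, because it was lower in the striata of rats given L-DOPA with Riluzole than in those of untreated rats and was not called with L-DOPA alone. The values of the treatments in the stretch are therefore a description without a test. Tests were made on the other CpGs of the window, between the lesioned and the control striatum, and on the difference of a treatment effect between the sides.

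Striata of 9 juvenile male Wistar rats were measured by reduced representation bisulfite sequencing (RRBS), in which the enzyme MspI cuts the genome at CCGG, the fragments are bisulfite treated, and methylated cytosines are read as C and unmethylated ones as T. Every rat received the toxin 6-OHDA into the medial forebrain bundle of 1 side at post-natal day (PND) 21, which destroys the dopaminergic input of that striatum, and all groups share this lesion. From PND 35 to PND 49 and once more at PND 53, 3 rats received saline (UNT), 3 rats L-DOPA, the precursor of dopamine, given with benserazide, and 3 rats L-DOPA with Riluzole (L-DOPA+R), a modulator of glutamate transmission. The striatum of the lesioned side and that of the other side, the control striatum, were sequenced separately, which gives 18 samples. The files held from 30304520 to 49146750 cytosine calls (reads summed over CpG cytosines) per striatum in UNT, from 18480983 to 30778121 under L-DOPA and from 19402864 to 25865285 under L-DOPA+R, so the treated groups were read less deeply. Methylation was measured on whole striatum, so a change within cells and a change in the share of a cell type cannot be told apart, and transcripts that would check the tissue by its markers were not analysed here.

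Pigx encodes a subunit of the enzyme that adds the first mannose to glycosylphosphatidylinositol (GPI), the lipid anchor that holds many proteins on the cell surface, where it stabilises the catalytic subunit Pigm. CpG-rich promoters of genes used in most cells are as a rule unmethylated, and methylation of a promoter is known to accompany silencing. In the GRCr8 assembly the protein-coding neighbours of Pigx in order are Nrros, a regulator of reactive oxygen species and of TGF-beta activation in microglia, Cep19, a protein of the centrosome and cilium, Pigx itself, Pak2, a p21-activated kinase, and Senp5, a SUMO protease.

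The promoters of Cep19 and Pigx overlap head to head. No annotation of rn6 was used here, so both were placed by the spacing of their CpGs. All 25 measured CpGs within the span of the Pigx promoter fell on the spacing of its 29 CpGs in the RefSeq sequence, with the start of the gene at base 71938388 on the plus strand. For Cep19 it was 31 measured CpGs on the spacing of 33, on the minus strand. The 9 CpGs lie from 106 to 151 bases past the Pigx start, upstream of the Cep19 start, in 47 bases with a GC content of 78.7%. The promoter sequence of Cep19 from RefSeq is shown because it contains the whole stretch. It is chr11:82191983-82192282 of GRCr8, 300 bases, printed along the plus strand and therefore in the direction of Pigx, with the 9 CpGs in capitals.

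Cep19 and Pigx promoter: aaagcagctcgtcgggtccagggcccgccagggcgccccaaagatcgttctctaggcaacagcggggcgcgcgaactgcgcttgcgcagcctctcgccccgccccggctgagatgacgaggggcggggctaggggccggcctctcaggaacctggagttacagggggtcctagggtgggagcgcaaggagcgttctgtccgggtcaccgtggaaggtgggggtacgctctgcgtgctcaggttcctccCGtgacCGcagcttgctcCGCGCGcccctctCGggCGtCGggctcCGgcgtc

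The sequence holds 33 CpGs, and 7.53% of the 33469 RefSeq promoters of this length hold as many. It has 4 CCGG sites, whose CpGs lie at -38, -6, 57 and 151 bases from the Pigx start. The motif CCGG, which is the same on both strands, occurs in 51.4% of those promoters. The last site is the last CpG of the stretch, and an MspI fragment of 94 bases runs between it and the site before. Reads of 50 bases start at these cuts. Minus-strand reads from the last site therefore run over all 9 CpGs, so that the 9 values of a striatum come from the same reads and are not 9 independent measurements. Plus-strand reads from the site before reach only the first of the 9 CpGs, 49 bases past the site, and plus-strand reads from the last site begin at the last CpG and leave the stretch.

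On the minus strand, which covers all 9 CpGs, the stretch was at intermediate methylation in UNT and in most L-DOPA striata, and nearly unmethylated in L-DOPA+R. In UNT, rat 1 had 21.7% of its minus-strand calls methylated in the control and 24.3% in the lesioned striatum. UNT rat 2 had 9.88% and 17.3%, and UNT rat 3 12.6% and 23.5%. All 6 UNT striata thus lay between 9.88% and 24.3%. In L-DOPA, rat 1 had 0.676% in the control and 8.89% in the lesioned striatum. L-DOPA rat 2 had 42.0% and 20.6%, and L-DOPA rat 3 14.9% and 8.77%. The L-DOPA striata spread from near 0 to above every UNT striatum. In L-DOPA+R, rat 1 had 0.488% in the control and 0% in the lesioned striatum. L-DOPA+R rat 2 had 0% and 0.709%, and L-DOPA+R rat 3 0% and 2.02%. Every UNT striatum was above every L-DOPA+R striatum, whereas the control striatum of L-DOPA rat 1 lay among those of L-DOPA+R.

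With both striata of a rat added up, methylation of the stretch on the minus strand was 17.4% ± 5.25 (SD, n = 3 rats) in UNT, 16.3% ± 14.3 (SD, n = 3) under L-DOPA and 0.484% ± 0.259 (SD, n = 3) under L-DOPA+R. By rat it was 23.0%, 12.7% and 16.5% in UNT, 3.78%, 31.8% and 13.3% in L-DOPA, and 0.362%, 0.308% and 0.781% in L-DOPA+R. The means of UNT and L-DOPA differed by less than the SD of either group. With strands merged and at least 10 reads per cytosine, the means were 18.1% ± 3.87 in UNT, 16.8% ± 14.9 under L-DOPA and 0.497% ± 0.228 under L-DOPA+R (SD, n = 3 rats each).

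**Figure D1:**
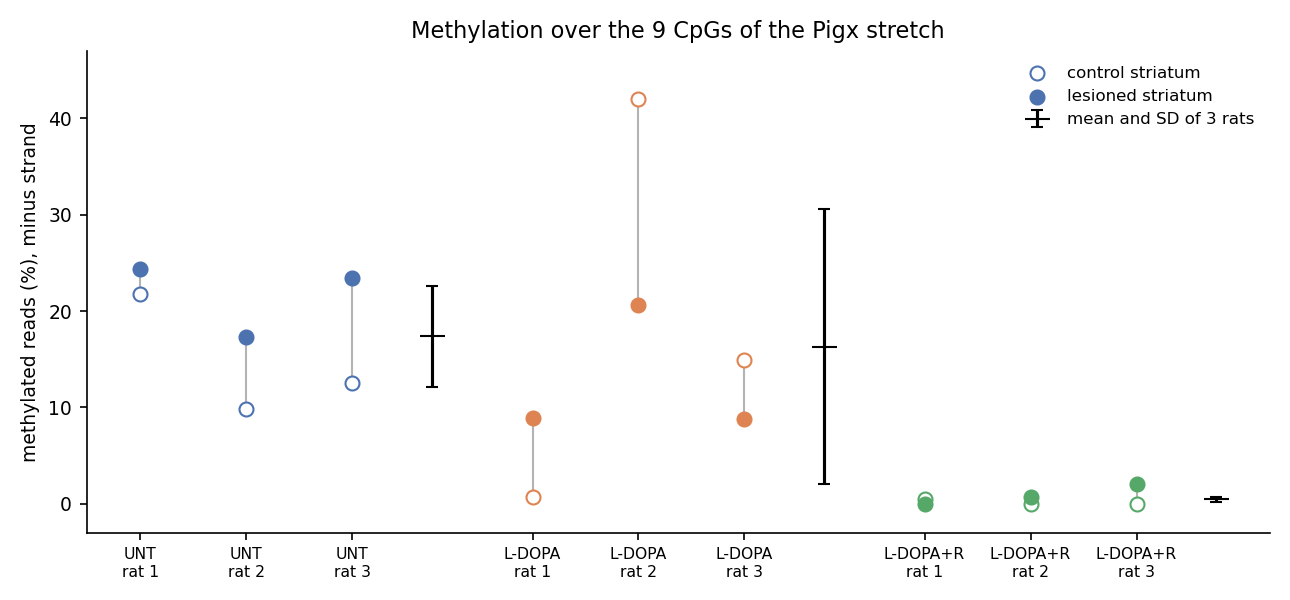
Percent of methylated minus-strand calls over the 9 CpGs of the stretch (vertical axis) in each striatum, by rat (horizontal axis). Open points are control and filled points lesioned striata, a grey line joins both striata of a rat, and black marks give the mean and SD of 3 rats; the L-DOPA+R striata lie between 0% and 2.02%, and those of L-DOPA between 0.676% and 42.0%.

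The depth behind these values was modest. At base 71938532, a CpG read on the minus strand only, UNT control striatum 1 had 9 methylated of 38 reads, 23.7% with an exact Clopper-Pearson 95% interval from 11.4% to 40.2%. The control striatum of L-DOPA rat 2 had 41.2% of 17 reads, with an interval from 18.4% to 67.1%. None of the 23 reads of the control striatum of L-DOPA+R rat 1 was methylated, which allows a share of up to 14.8% by the same interval. Reads are not independent molecules where DNA was amplified, and such intervals cover counting error only. The lesioned striatum of L-DOPA+R rat 1 had at most 8 minus-strand reads at any of the 9 CpGs, and with the minimum of 10 reads only its first CpG, through 15 plus-strand reads, entered the fits.

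The 9 CpGs were alike on the minus strand. Over all reads of a treatment they ranged from 15.7% to 20.4% in UNT, from 14.2% to 17.5% under L-DOPA and from 0% to 2.25% under L-DOPA+R. At the first CpG, base 71938494, the UNT striata ran from 10.3% over a median of 18.03% to 24.0%, those of L-DOPA from 0% over 13.7% to 41.2%, and the 5 L-DOPA+R striata with 10 reads were all at 0%. At the third, base 71938512, the UNT striata ran from 10.7% over 20.2% to 31.6%, and 4 L-DOPA striata from 7.69% over 20.4% to 41.7%. The L-DOPA+R striata were again at 0%. The last CpG, base 71938539, was the one at which a striatum of L-DOPA+R reached into the range of UNT, at 18.2% (2 of 11 reads in the lesioned striatum of rat 3), against 10.3% to 26.9% in UNT. Of 45 minus-strand values of L-DOPA+R, 42 were at 0, of 52 values of L-DOPA 8, and of 54 values of UNT 0.

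The plus strand gave other levels at both ends of the stretch. The reads and an rn6 genome were not used here, so whether the reads of both strands come from this locus and its reference sequence was not tested. At its first CpG, the plus strand showed 0 methylated of 123 reads in UNT, 0 of 63 under L-DOPA and 0 of 62 under L-DOPA+R, which allow a share of up to 2.44%, 4.76% and 4.84% (3 counts of the total). This cytosine lies 49 bases past its CCGG site, at the end of a 50-base read. With cytosines 46 to 50 bases past a called cytosine left out, the merged L-DOPA+R minus UNT at this CpG moved from -10.1 to -16.5 percentage points. The minus strand of the same CpG was at 16.5% in UNT, 15.9% under L-DOPA and 0% under L-DOPA+R. At the last CpG the order of the strands was the opposite. There the plus strand had 51 of 96 reads methylated in UNT (53.1%), 19 of 39 under L-DOPA (48.7%) and 0 of 29 under L-DOPA+R, which allows up to 10.3%, against 20% (39 of 195 reads), 16.5% and 2.06% on the minus strand.

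By rat, the plus strand of the last CpG was methylated in 44.2%, 70.8% and 51.7% of reads in UNT, in 0%, 58.8% and 50% in L-DOPA, and in 0% in each L-DOPA+R rat. On the minus strand the control striatum of L-DOPA rat 1 lay among those of L-DOPA+R, at 0.676%, and its lesioned striatum was at 8.89%. On the plus strand of the last CpG this rat was at 0, on 4 reads. This cytosine reached 10 reads in 6 striata of UNT, 2 of L-DOPA and 0 of L-DOPA+R, so the merged value of the last CpG contains plus-strand reads in UNT and L-DOPA but not in L-DOPA+R.

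Because the strands differed, the size of the difference at the end CpGs depended on which strand was read. With strands merged, L-DOPA+R minus UNT was -10.1 percentage points at the first CpG and -28.7 at the last. On the minus strand the corresponding differences were -16.5 and -17.9, and all 9 lay between -20.4 and -15.7. L-DOPA minus UNT on the minus strand lay between -3.75 and 0.991 points, and L-DOPA+R minus L-DOPA between -17.3 and -14.2. The fit made here used the same data as those by which the stretch was chosen. It called 9 of the 9 CpGs at q under 0.01 in L-DOPA+R against UNT, where 0.445% of all CpGs tested were called. It called 0 of 9 in L-DOPA against UNT (0.351% of all) and 1 of 9 in L-DOPA+R against L-DOPA (0.0477% of all). The first of these counts was 0 when an F test was used (0.0578% of all) and 3 when L-DOPA+R rat 2 was left out (0.296% of all). The single call in L-DOPA+R against L-DOPA became 0 with the F test (0.000352% of all), with the rat as the unit (0.034% of all), without L-DOPA rat 2 (0.0551%) and without L-DOPA+R rat 1 (0.0426%), rat 2 (0.0405%) or rat 3 (0.0869%). It became 6 without L-DOPA rat 1 (0.0387%) and 7 with the replicate block (0.0908%). These counts are given as a description only.

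**Figure D2:**
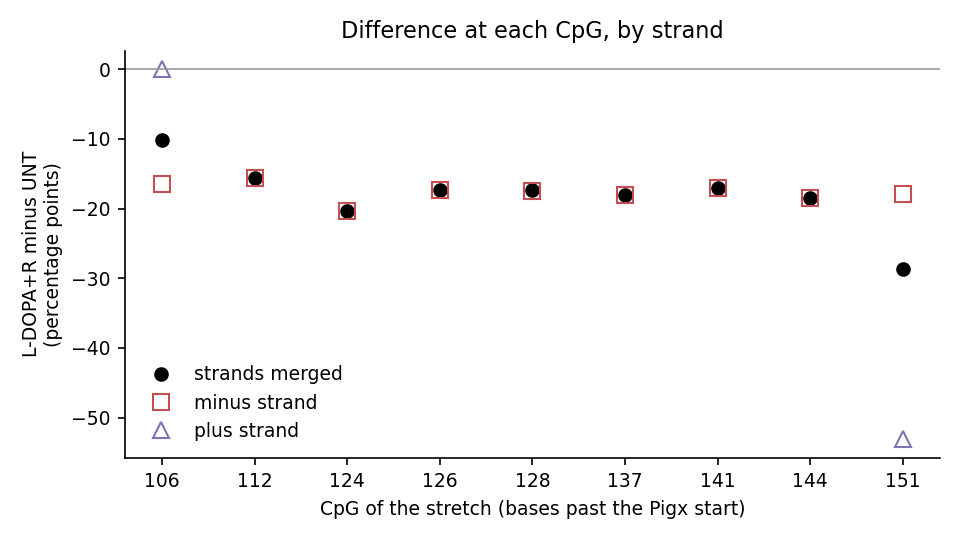
Difference of L-DOPA+R minus UNT in percentage points (vertical axis) at each CpG of the stretch, labelled by its distance past the Pigx start (horizontal axis), with strands merged (black points), on the minus strand (red squares) and on the plus strand (purple triangles). The minus strand lies between -20.4 and -15.7 points throughout, and the plus strand is at 0 points at the first CpG and at -53.1 at the last.

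Within the control striata alone, 1 of the 9 CpGs was called in L-DOPA+R against UNT (0.306% of all CpGs), 0 of 9 in L-DOPA against UNT (0.255%) and 0 of 9 in L-DOPA+R against L-DOPA (0.0264%). In the lesioned striata, the shallow library left 1 CpG of the stretch to compare in L-DOPA+R against UNT and 0 were called (0.287% of all). It was 0 of 8 in L-DOPA against UNT (0.237%) and 0 of 1 in L-DOPA+R against L-DOPA (0.0284%).

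The CpGs next to the stretch had values on the plus strand alone, so they cannot be set beside its minus-strand levels. The nearest CpG before the stretch, at 89 bases past the Pigx start, had 0 methylated of 120 plus-strand reads in UNT, 0 of 59 under L-DOPA and 0 of 58 under L-DOPA+R. The nearest beyond it, at 154 bases, was methylated in 24 of 56 plus-strand reads in UNT, 6 of 11 under L-DOPA and 0 of 21 under L-DOPA+R. At 169 bases it was 53 of 94 reads (56.4%) in UNT, 21 of 46 (45.7%) under L-DOPA and 0 of 30 under L-DOPA+R. These plus-strand reads start at the last CCGG, as do those of the last CpG of the stretch, and both CpGs were singled out after their values were seen. Farther on, the CpGs from 333 to 420 bases past the start were at 0% to 3.13% in all groups, on at most 61 reads per cytosine and group.

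The rest of the promoter, from -214 to 89 bases from the Pigx start, was at or under 8.0% in every group wherever a cytosine had at least 20 reads. The CpG of the CCGG at -6 bases had 3.19% in UNT, 2.44% under L-DOPA and 6.92% under L-DOPA+R. The CpG at -187 bases, base 71938201, had 1.57% in UNT, 7.69% under L-DOPA and 8.0% under L-DOPA+R over all reads. The L-DOPA value rested on the lesioned striatum of rat 3, with 3 of 10 reads methylated, and the control striatum of rat 1, with 1 of 14, while the other 4 L-DOPA striata had 0 of 2 to 0 of 13.

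**Figure D3:**
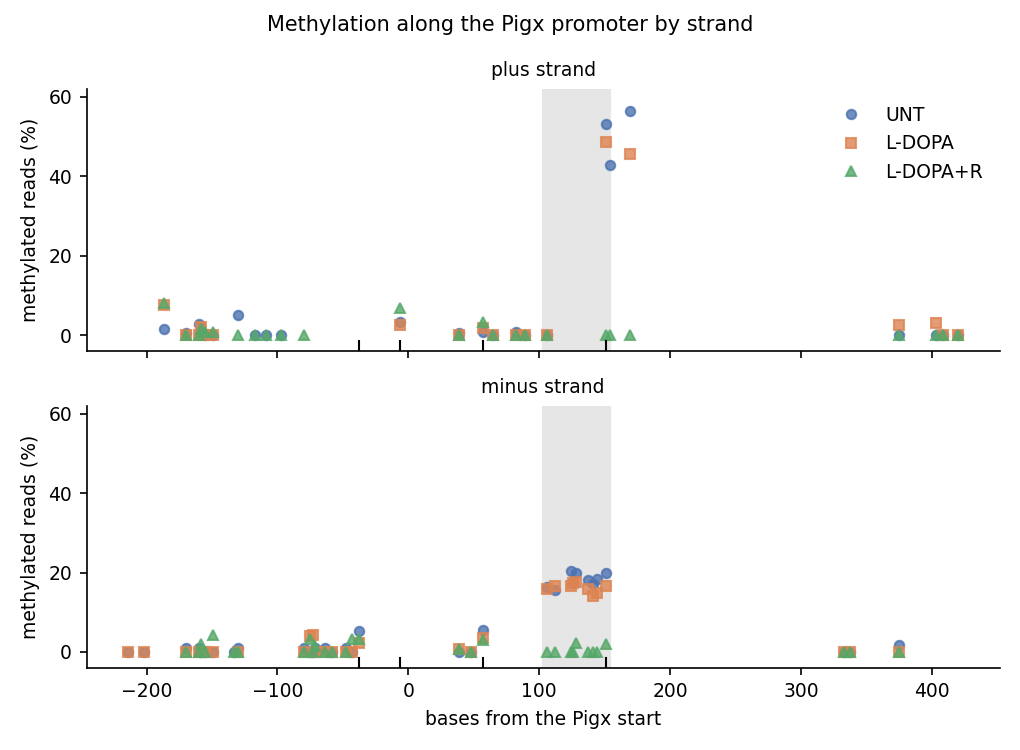
Percent of methylated reads (vertical axis) at each cytosine with at least 20 reads in a treatment, against the distance in bases from the Pigx start (horizontal axis), on the plus strand (top) and the minus strand (bottom). The stretch is shaded grey and black ticks mark the CCGG sites; UNT reaches 56.4% on the plus strand and 20.4% on the minus strand, and L-DOPA+R stays at or under 8.0% on both.

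The side of the lesion was not used to choose the stretch, so lesioned and control striata could be compared there. In UNT all 3 lesioned striata were higher on the minus strand, by 2.61, 7.45 and 10.9 percentage points. In L-DOPA the lesioned minus control difference was 8.21 points in rat 1, -21.4 in rat 2 and -6.17 in rat 3. In L-DOPA+R it was -0.488, 0.709 and 2.02 points. Over the 9 rats, 6 were higher in the lesioned and 3 in the control striatum, with a mean difference of 0.43 ± 9.67 points (SD), which is smaller than the spread between rats.

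In the fit per CpG, 0 of the 9 CpGs were called between the sides in UNT (0.00193% of all CpGs called). An unadjusted p under 0.05 was found at 2 of the 9 (6.45% of all CpGs), which lie on the same reads. These were base 71938512, at 27.5% in lesioned and 15.3% in control striata (q = 0.747), and base 71938514, at 24.1% and 12.5% (q = 0.743). In L-DOPA 0 of 8 were called (0.00101% of all), and over all 9 rats with the rat as a block 0 of 9 (0.00542% of all). In both cases 0 had an unadjusted p under 0.05 (5.4% and 7.23% of all). In L-DOPA+R 1 CpG entered the comparison of the sides, base 71938494, and it had 0 methylated of 72 reads in lesioned and 0 of 61 in control striata, so that no call was possible there (0.00176% of all CpGs called). The difference of a treatment effect between the sides was called at 0 of 8 CpGs of the stretch for L-DOPA against UNT (0.0% of all CpGs). There 0 had an unadjusted p under 0.05 (6.07% of all). For L-DOPA+R against UNT (0.0% of all) and against L-DOPA (0.000658%) the same single CpG without a methylated read in L-DOPA+R entered, so that no call was possible in the stretch.

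Outside the stretch, no CpG of the window was called in any of the 16 comparisons with the chi-square test. Of the 84, 32 could be tested in L-DOPA+R against UNT, of which 4 had an unadjusted p under 0.05 (9.52% of all CpGs did). In L-DOPA against UNT it was 3 of 24 (7.37% of all), and in L-DOPA+R against L-DOPA 4 of 19 (7.09% of all). With the rat as the unit these counts were 3 of 32, 1 of 24 and 3 of 19, and the share over all CpGs was not counted for that setting. With 0.445%, 0.351% and 0.0477% of all CpGs called in these 3 comparisons, 0 calls among so few CpGs is near the background. In lesioned striata it was 3 of 8 in L-DOPA against UNT (7.04% of all) and 2 of 8 in L-DOPA+R against L-DOPA (6.69% of all), and in control striata 3 of 18 in L-DOPA+R against UNT (8.6% of all). For the difference between the sides of L-DOPA against UNT it was 2 of 7 (6.07% of all). In each of the other comparisons 0 or 1 CpG had an unadjusted p under 0.05, among them 0 of 37 between the sides in UNT (6.45% of all). The nearest to a call among all comparisons was base 71910266, at -28122 bases from the Pigx start, in the control striata of L-DOPA+R against UNT, at 3.42% and 15.4% (chi-square test, p = 0.00065, q = 0.0852).

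In L-DOPA+R against UNT, the 3 CpGs with the smallest p all lay in the promoter, before the Pigx start. Base 71938201 had 8.0% in L-DOPA+R and 1.57% in UNT (q = 0.229). Base 71938239 had 1.81% and 0% (q = 0.335), and base 71938228 0% and 2.1% (q = 0.37). At the first of these the L-DOPA+R rats had 16.1%, 5.17% and 5.56% and the UNT rats 2.27%, 0% and 1.43%, so the difference ran opposite to that of the stretch.

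A group of CpGs about 28 kb before the Pigx start also had intermediate methylation that varied between rats. At base 71910266 the UNT rats had 10.2%, 17.02% and 12.3%, the L-DOPA rats 20.4%, 52.2% and 16.9%, and the L-DOPA+R rats 11.4%, 1.0% and 9.76%. At base 71910297, at -28091 bases from the start, the UNT rats had 3.13%, 19.3% and 0%, the L-DOPA rats 18.5%, 44.9% and 14.6%, and the L-DOPA+R rats 11.6%, 2.13% and 0%. L-DOPA rat 2 was the highest rat at both CpGs, as it was in the stretch. L-DOPA+R against L-DOPA gave -18.7 points at base 71910297 (q = 0.257) and -20.03 points at base 71910266 (q = 0.436). L-DOPA against UNT gave 16.6 points (q = 0.541) and 13.7 points (q = 0.637). None of these passed the threshold. Without overdispersion correction base 71910297 was called in both of these comparisons and base 71910266 in the first, and at base 71910297 the variance between striata was 9.98 times that of binomial sampling in L-DOPA against UNT.

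The neighbouring CpG at 71910317 stayed low in all groups, at 1.61% ± 1.6 in UNT, 1.29% ± 1.15 under L-DOPA and 4.37% ± 3.68 under L-DOPA+R (SD, n = 3 rats each). Base 71910004 had 15.5% ± 16.2, 29.9% ± 8.92 and 11.6% ± 14.7 in the same order. In lesioned striata it was at 32.4% under L-DOPA and 11.7% in UNT (q = 0.527), and at 10% under L-DOPA+R (q = 0.815 against L-DOPA).

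**Figure D4:**
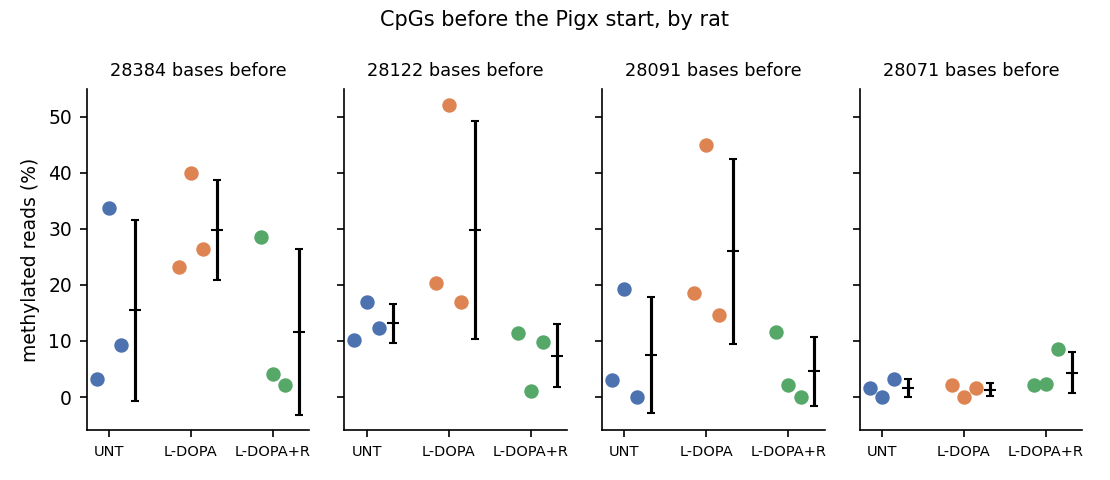
Percent of methylated reads (vertical axis) by rat at 4 CpGs about 28 kb before the Pigx start, 1 panel each, for UNT, L-DOPA and L-DOPA+R. Each point is a rat with both striata added up and black marks give the mean and SD; L-DOPA rat 2 is the highest point in the panels for base 71910266 (52.2%) and base 71910297 (44.9%).

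The 9 CpGs from base 71888605 to 71888727 were at 84.3% ± 3.3 in UNT, 82.7% ± 5.9 under L-DOPA and 80.1% ± 1.6 under L-DOPA+R (SD, n = 3 rats each). Within them base 71888690 was at 51.4% and 78.4% in L-DOPA+R and UNT control striata (q = 0.271), and base 71888727 over the rats at 89.6% in lesioned and 96.4% in control striata (q = 0.546). Past the Pigx start, at 20.88 kb, the 11 CpGs from base 71959264 to 71959341 were at 0.568% ± 0.58, 1.27% ± 1.32 and 0.151% ± 0.261. Base 71959278 among them had 0% under L-DOPA+R and 8.7% under L-DOPA (q = 0.434), where L-DOPA rat 2 had 3 of 10 reads methylated and the other L-DOPA rats 0 of 10 and 1 of 26. The CpGs with the smallest p in the other comparisons within a side, between sides and of the difference between sides were these same ones, base 71888704, and bases 71938218, 71938427 and 71938445 in the promoter, all with q above the threshold.

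Other places that followed the pattern of the stretch over the 18 striata were sought by correlation. The minus-strand percentage of the stretch, over all reads, was correlated with the merged percentage of 37099 clusters of at least 3 CpGs. The median Pearson r was 0.065, the 99th percentile 0.628, and 19 clusters had r over 0.8. These r values are a description over 18 striata of 9 rats, where both striata of a rat come from 1 animal and rats share treatments. The highest was a cluster of 3 CpGs on chromosome 18, from base 78143003 to 78143048, with r = 0.89, which ran only from 90.5% to 98.98% and had 96.1% in UNT, 95.6% under L-DOPA and 92.0% under L-DOPA+R. Clusters on chromosome 7 (bases 144066213 to 144066255, r = 0.855), chromosome 8 (bases 47866216 to 47866262, r = 0.851) and chromosome 5 (bases 154392518 to 154392573, r = 0.85) had 63.9%, 37.4% and 83.1% in L-DOPA+R and 72.2%, 47.1% and 88.8% in UNT. Since the clusters were picked for their r with a stretch that was chosen as low in L-DOPA+R, the order of their treatments follows from the choice.

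The cluster on chromosome 13, 4 CpGs from base 23853392 to 23853429 with r = 0.856, took separate levels. All 6 L-DOPA+R striata lay between 49.6% and 50.5%, on at least 95 reads each. The striata of L-DOPA rat 1 were at 52.9% and 49.3%, those of rat 2 at 95.8% and 98.9%, and those of rat 3 at 74.0% and 79.8%. In UNT, rat 1 had 95.2% and 94.8%, rat 2 72.4% and 77.7%, and rat 3 95.9% and 96.7%. Both striata of a rat were thus close to each other, and L-DOPA rat 1 shared the level of L-DOPA+R here. At the plus strand of the last CpG of the stretch it was at 0 like L-DOPA+R, but on 4 reads. On the minus strand of the stretch it was at 3.78%, above every L-DOPA+R rat. Since the cluster was picked for its r with the stretch, a likeness of this rat in both places follows in part from the choice.

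**Figure D5:**
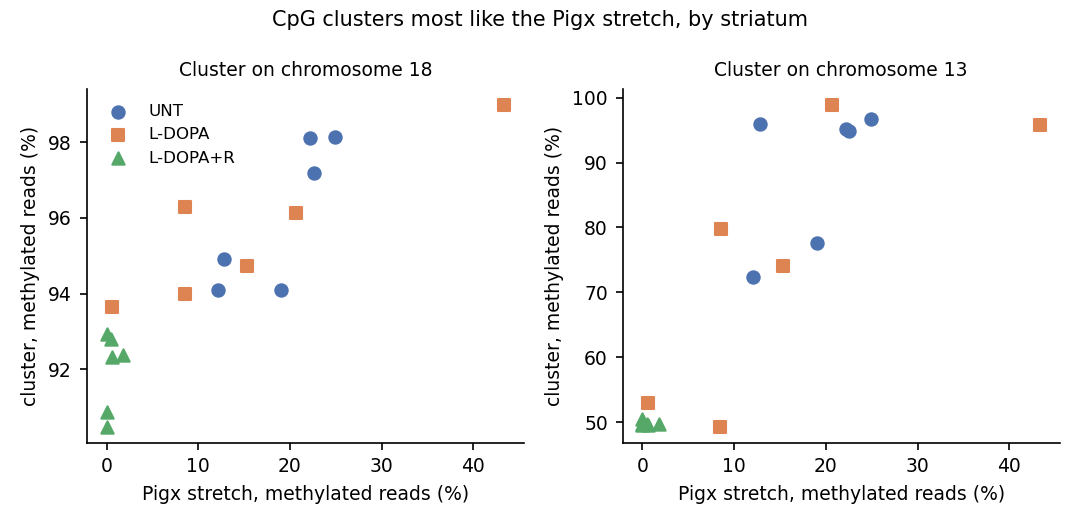
Percent of methylated reads in the cluster on chromosome 18 (left) and on chromosome 13 (right) on vertical axes of different range, against the merged percentage of the Pigx stretch (horizontal axis), with 1 point per striatum. On chromosome 13 the 6 L-DOPA+R striata and both striata of L-DOPA rat 1 lie between 49.3% and 52.9%, and all other striata at 72.4% or more. The r values in the text were computed with the minus-strand percentage of the stretch.

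Other genes of the GPI pathway were covered in part. Of 27 genes listed, 9 promoters could be placed by the spacing of their CpGs. Of these, 8 had CpGs to test within the placed promoter, from 250 bases before to 50 after the start. In L-DOPA+R against UNT 0 of 58 CpGs were called, and 0 of 57 in each of the other pairs of treatments. With 0.445%, 0.351% and 0.0477% of all CpGs called in L-DOPA+R against UNT, L-DOPA against UNT and L-DOPA+R against L-DOPA, a count of 0 among so few CpGs is near the background. As examples chosen after their values were seen, Dpm1, part of the dolichol-phosphate mannose synthase that supplies mannose, was at 0.874% in L-DOPA+R and 0.898% in UNT over 16 CpGs, and Pigo, a transferase of the phosphoethanolamine that links anchor and protein, was at 96.5% and 95.5% over 3 CpGs.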

How the data were processed

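Per the deposited files, each of the 18 striata has 1 table of CpG cytosines by strand, with coverage as a read count and the methylated and unmethylated shares in percent. The submitters' processing notes name CASAVA, Trim Galore 0.4.0, Bismark (written as version 014.3) and the build rn6, and the study's methods name methylKit, single-end reads of 50 bases and a tolerance of 1 mismatch. The number of methylated reads was computed as coverage times percent and rounded, spike-in contigs were dropped, and cytosines of 10 or more reads were merged by CpG. A logistic model per CpG with overdispersion from Pearson residuals (never under 1) and a chi-square test was fitted to all CpGs, after the design of methylKit, in Python 3 with NumPy and SciPy. Here p was adjusted by Benjamini-Hochberg over all CpGs and called at q under 0.01, while the study corrected for the false discovery rate by a procedure that the sources used here do not name. On simulated reads this test recovered the direction of the changes, and its unadjusted p fell under the threshold somewhat more often than its nominal share. Treatments over both sides needed at least 4 of 6 striata per group, and the other comparisons all striata of both groups, or 6 rats with both striata. Replicate numbers pair both striata of a rat, which come from 1 animal: their deviations from the group means correlated at 0.048 to 0.134 over 116590 CpGs, and each of the 18 striata correlated best with the other striatum of its own rat among those of its treatment. Between treatments equal numbers are different rats. Both striata entered the treatment fits as samples, and the fit with the rat as the unit is among the alternatives.

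The members and the lists were chosen with earlier results of these data known. Named outside the stretch were CpGs called in any comparison or, with none called, the 3 with the smallest p in each, and the 5 clusters most like the stretch (at least 3 CpGs with 10 reads in all 18 striata, gaps of at most 50 bases). RefSeq promoters of GRCr8, 250 bases before to 50 after a start, were placed in rn6 only where at least 6 CpGs matched in spacing and every measured CpG in the span did. This rule, its use for the GPI genes and the CpG shown with an interval were chosen after seeing the data. Depth limits precision to the intervals given.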

Additional observations from a re-analysis of the deposited data

Results flagged for a closer look

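Among the 60 sets of 4 to 6 striata examined, 11 had a striatum that stood apart from the others of its treatment by Dixon's criterion, which chance meets in about 1 of 20 sets of continuous values. That rate does not apply to the 6 of these sets in which all other striata were at 0%, where any methylated read stands apart. In the stretch these were the merged percentage of the lesioned striatum of L-DOPA+R rat 3, at 1.79% (2 of 112 calls) with the next at 0.633%, its last CpG, base 71938539, at 18.2% (2 of 11 reads) with the other 4 at 0%, and base 71938529 in the control striatum of L-DOPA rat 2, at 41.2% (7 of 17 reads) with the next at 14.3%. Outside the stretch, base 71888727 was at 70.0% in the lesioned striatum of L-DOPA+R rat 2 (7 of 10 reads) with the next at 97.8%. Base 71938445 was at 11.5% in the control striatum of L-DOPA+R rat 2 (3 of 26 reads) with the next at 2.86%, and base 71959278 at 12% in the control striatum of UNT rat 3 (3 of 25 reads) with the others at 0%. The remaining cases rested on 1 or 2 methylated reads. These were base 71938218 at 2.9% in a UNT striatum, base 71938239 at 6.25% in an L-DOPA+R striatum, and base 71938427 at 2.22% in a UNT, 2.27% in an L-DOPA and 3.23% in an L-DOPA+R striatum.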

How the results depend on the processing

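The share of all CpGs called, the background of every count, moved from 0.445% in L-DOPA+R against UNT, 0.351% in L-DOPA against UNT and 0.0477% in L-DOPA+R against L-DOPA to 1.22%, 0.744% and 0.285% without overdispersion correction, and to 0.132%, 0.0776% and 0.0437% with the ends of reads left out. The first also became 0.193% and the second 0.14% on the plus strand, and 0.174% and 0.128% on the minus strand. The first was 0.296% without L-DOPA+R rat 2, and the third 0.0908% with the replicate block, 0.0869% without L-DOPA+R rat 3 and 0.0742% with a minimum of 20 reads. The F test gave 0.0578%, 0.0622% and 0.000352%. Of the counts of called CpGs in the stretch and the window and the levels of the stretch, those not given here stayed within 1.5 times their count, or moved by less than the SD between rats, under every alternative run. The 9 calls of the stretch in L-DOPA+R against UNT fell to 0 with the F test, and to 1 where CpGs had to be in all 12 striata, since only 1 was. They ranged from 3 to 9 with 1 rat left out (3 without L-DOPA+R rat 2). In L-DOPA+R against L-DOPA the 1 call of the stretch became 0 with the F test, with the rat as the unit and with all 12 striata required, 8 without overdispersion correction and 7 with the replicate block, and ranged from 0 (without L-DOPA rat 2 or any L-DOPA+R rat) to 6 (without L-DOPA rat 1) with 1 rat left out, where 0.0387% to 0.0869% of all CpGs were called. In the control striata, L-DOPA+R against UNT had 0 calls in the stretch with the F test. That test called 0.0% of all CpGs in every comparison within a side, between sides and of the difference between sides, so it says nothing of the stretch there. The count was 4 without overdispersion correction (0.803% of all) and 2 with the replicate block (0.39%). With 1 rat left out it was 1 to 2 (0.231% to 0.309%), and 2 without UNT rat 2 (0.267%). In the control striata of L-DOPA+R against L-DOPA it was 1 without overdispersion correction (0.166%) and 1 with the replicate block (0.0668%). With 1 rat left out it was 0 to 1 (0.0221% to 0.0461%), and 1 without L-DOPA rat 1 (0.0221%). Outside the stretch 0 calls became 1 (L-DOPA against UNT) or 2 (L-DOPA+R against L-DOPA) without overdispersion correction over both sides, 1 in the control striata of L-DOPA against UNT and of L-DOPA+R against L-DOPA, and 2 in the lesioned striata of each, all at bases 71910266 and 71910297. With the replicate block it was 1 in L-DOPA against UNT over both sides and 1 in the lesioned striata, at the same bases, and with 1 rat left out 0 to 1 in L-DOPA against UNT (without UNT rat 2) and in L-DOPA+R against L-DOPA (without L-DOPA+R rat 1), each time at base 71910004. The cause of these shifts was not tested. Between treatments the same number is another rat, and its striata did not deviate together (median correlation 0.002). Blocking by rat changed no window call between the sides. On the plus strand alone the stretch was at 24.7% in UNT and 0% in L-DOPA+R. In UNT all methylated plus-strand reads were of the last CpG, whereas in L-DOPA+R only the first CpG reached 10 reads. These levels therefore cover different CpGs and cannot be compared. With a minimum of 20 reads the stretch was at 0.244% in L-DOPA+R, from 2 rats. A minimum of 20 reads left no CpG of the stretch to test in any comparison, and the plus strand alone, the minus strand alone and leaving out the ends of reads left none in some, so these settings gave no count there. The few reads of the lesioned striatum of L-DOPA+R rat 1 limited comparisons with the lesioned L-DOPA+R striata to the first CpG.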
